A study of Homo sapiens with 12 samples.

Results

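The effect of a short hairpin RNA against IRF4 was measured in 6 of the 12 poly(A) RNA libraries of the study, those whose library name carries the number 2 after the group (library series 2). There were 3 libraries from cells treated with a scramble hairpin (control) and 3 from cells treated with the IRF4 hairpin. They were chosen by name alone, not by any measured value. All came from TMD8, an established human line of diffuse large B cell lymphoma, labelled as the activated B cell (ABC) type, and pellets were frozen at 24 h. The labels do not say what the number 2 stands for (a hairpin, a culture or a run), nor from which event the 24 h were counted. Since separate cultures are not named either, the p-values speak of the spread among these libraries alone, which may be technical. The remaining 6 libraries, 3 of each group, carry the number 1 and are called series 1. They share no library with series 2. A cell line label that counts upward from TMD8 along the samples was not used, since every title says TMD8.

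IRF4 is a transcription factor of lymphocytes that binds interferon-stimulated response elements and, with partners such as SPIB or BATF, composite elements. At high levels it drives B cells toward the plasma cell programme and represses germinal centre genes. Lymphomas of the ABC type depend on it, and with SPIB it is known to hold down IRF7 and the type I interferon response in these cells.

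The libraries of series 2 held 32.2 to 38.2 M counts (M, 1e6 counts), and mitochondrial genes took 8.16 to 8.66% of them. Pseudogenes took 6.34 to 6.56% of the counts in controls and 4.76 to 4.81% with IRF4 shRNA. Control replicate 1 stood apart from its group. Among 10874 genes with a mean of at least 5 CPM (counts per 1e6, on library sizes scaled by TMM), 471 lay more than 1.5-fold above or below both other controls in that library, 461 of them below. The same count was 12 and 49 for control replicates 2 and 3, and 5 to 7 for the IRF4 shRNA libraries. Across genes, which are not independent replicates, the deviation of control replicate 1 from its group mean ran against transcript GC content (Spearman's rho -0.52), while it ran with it in control replicate 3 (0.49). The part of this difference in each result was not tested, and results are given with and without these libraries where they move them.

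**Figure D1:**
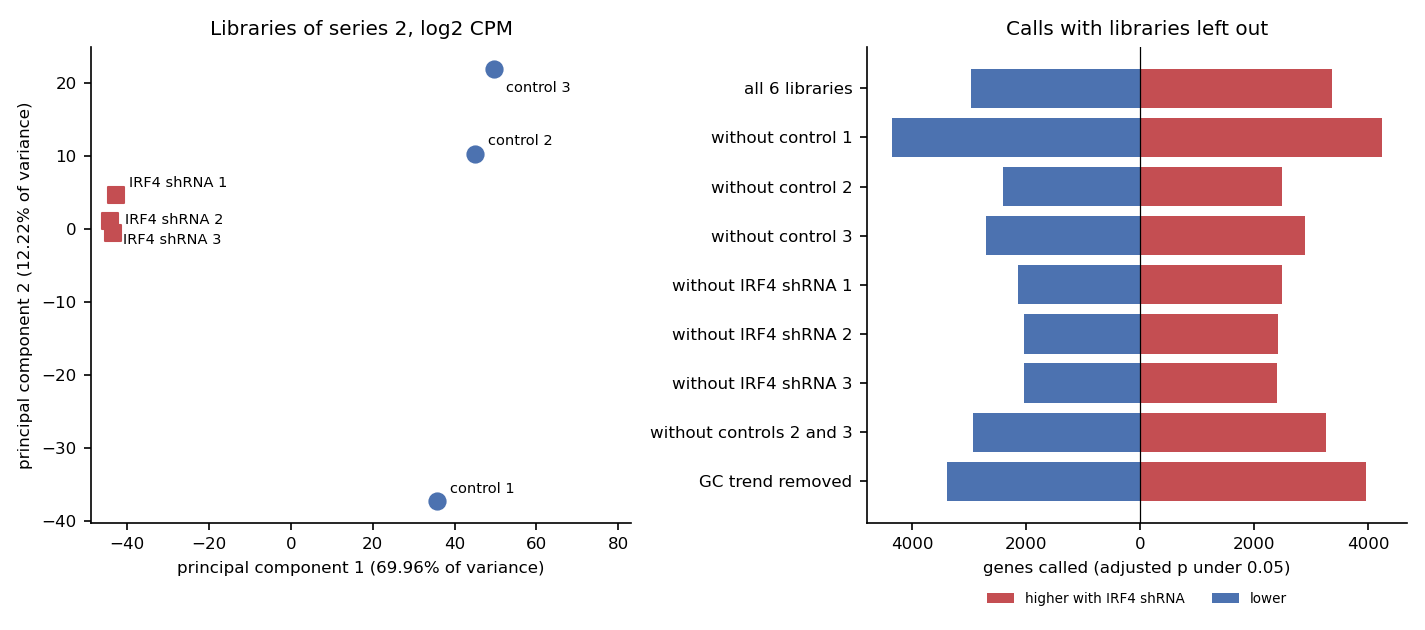
Left, the 6 libraries on the first 2 principal components of log2 CPM; circles are controls and squares IRF4 shRNA. Right, genes called by edgeR with each library left out, with only control replicate 1 kept among controls, and with the GC trend removed; bars to the right count genes higher with IRF4 shRNA and bars to the left genes lower. The groups lie apart on the first component, and control replicate 1 sits at -37.3 on the second against 10.3 and 21.9 for the other controls; leaving it out gives the longest bars.

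All IRF4 shRNA libraries held less IRF4 messenger RNA, the target, than all controls. The gene is on the plus strand of chromosome 6 (hg38, 391752 to 411443). It stood at 1432, 1525 and 1424 CPM in control replicates 1 to 3 and at 719, 689.7 and 705.2 CPM in IRF4 shRNA replicates 1 to 3. The groups did not overlap, and 48.3% of the control level remained. The log2 fold change was -1.05 (SE 0.04, edgeR adjusted p = 5.59e-07). By exact permutation, two-sided, p was 0.1, which is the smallest value 3 against 3 libraries allow. In series 1 the log2 fold change was -1.53, and the effect of series 2 minus that of series 1 was 0.46 (SE 0.06, edgeR interaction adjusted p = 0.00106): the target fell less in series 2.

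By edgeR, 6332 of 16614 genes tested in series 2 passed an adjusted p of 0.05 (38.1%). Of these 3354 were higher with IRF4 shRNA (20.2%) and 2978 lower (17.9%). The counts by list given below are to be read against these shares. Changes of at least 2-fold numbered 899 upward (5.41%) and 600 downward (3.61%). The groups did not overlap in 8446 genes (50.8%), 4583 of them upward (27.6%) and 3863 downward (23.3%). Scaling by library size, without TMM, made 63.6% of the calls higher, against 53.0%. Without control replicate 1 there were 8611 calls, and falls of at least 2-fold rose in number from 600 to 905; with only that control kept there were 6207 and 417. The gene types moved unequally: 24.2% of 12271 protein-coding genes were higher and 17.7% lower, against 7.59% and 23.9% of 1976 pseudogenes. Copies that resemble each other can share fractional counts, so the pseudogene values are uncertain. Fewer cells of a type and less RNA per cell cannot be told apart in these bulk libraries.

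Among the lists described, genes induced by type I interferon had the highest median change, except with control replicate 1 as the only control (1.91, against 2.03 for immediate early genes). Of 52 tested members, 51 rose and none fell. At least 2-fold rises numbered 42, and the median log2 fold change was 1.95 against 0.00 over all genes tested; of the background, 20.2% rose. The member that did not pass was CXCL10, a chemokine (0.32, SE 0.12, adjusted p = 0.0679). IFI27, an interferon-induced mitochondrial protein gene, stood at 1.73, 1.45 and 2.43 CPM in controls and at 275.8, 277.4 and 284.8 CPM with IRF4 shRNA, a log2 fold change of 7.22 (SE 0.13, adjusted p = 8.06e-09). IFI44L, which dampens interferon responses, stood at 0.66, 0.59 and 0.64 CPM against 58.9, 65.0 and 72.5 CPM. OAS3 encodes an enzyme that senses double-stranded RNA and sets off the decay of single-stranded RNA. It rose from 24.7, 24.2 and 23.4 to 295.3, 312.0 and 321.7 CPM (3.68, SE 0.06, adjusted p = 4.37e-09). In none of these genes did the groups come near each other. In RSAD2, an antiviral enzyme gene named after its value was seen, no count was found in any control, which puts its log2 rise at 4.67 or more, with 3 counts over the control group as the floor; the list's median was 1.95 with this bound in place. Leaving out any single library gave 51 or 52 rises and no falls.

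**Figure D2:**
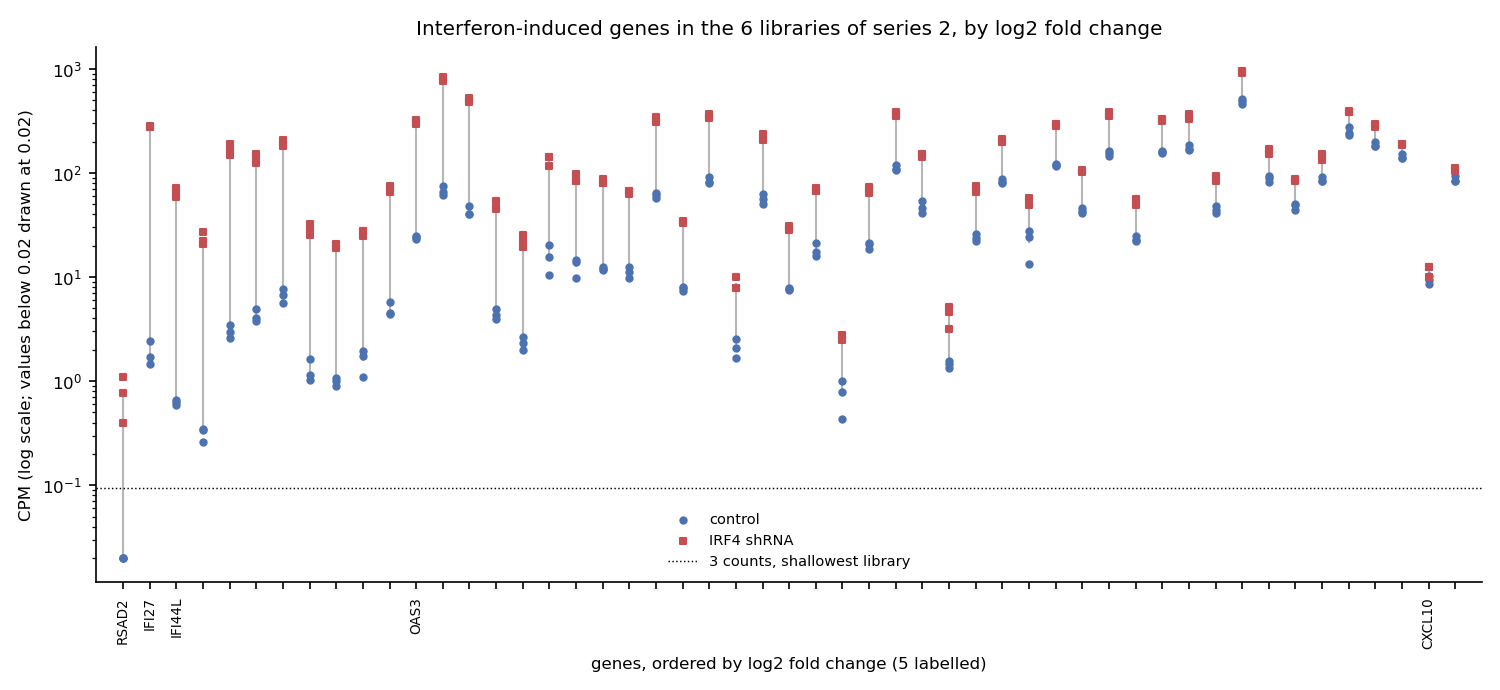
Level of 51 of the 52 interferon-induced genes tested, in CPM on a log scale, in the 3 control libraries (circles) and 3 IRF4 shRNA libraries (squares) of series 2, ordered by log2 fold change; grey lines join the group means and the dotted line marks 3 counts in the shallowest library. All genes drawn but CXCL10 passed the test, and IFI27, at 1.45 to 2.43 CPM in controls, lies at 275.8 to 284.8 CPM with IRF4 shRNA.

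Promoters of genes of this list, and of B2M of the MHC class I list, are shown because the letters of the interferon-stimulated response element, an IRF binding element, are frequent in the list's promoters. Its core, GAAA followed by any 2 bases and a second GAAA, was searched on both strands in the 250 bases before the start in RefSeq's promoter table (GRCh38.p14), which held 10347 of the genes tested. It was in 282 of all 10347 promoters (2.73%) and in 23 of the 41 promoters matched to the interferon list (56.1%). Among genes that rose at least 2-fold, 41 of 578 held it (7.09%), against 8 of 281 that fell at least 2-fold (2.85%) and 2.19% of genes that did not pass. These risers take in members of the interferon list, 42 of which rose at least 2-fold, so the 2 sets overlap. The share without that list was not counted. The ETS-IRF composite, GGAA followed by any 2 bases and GAAA, which can overlap the first motif, was in 2.38% of all promoters, 4.15% of those that rose at least 2-fold and 1.42% of those that fell at least 2-fold. A match is a description of letters, not a site. In the lines that follow, 5′ to 3′ on the gene's strand, capitals mark the match, or its reverse complement. They are at chr14:94110616-94110675 for IFI27, chr1:78620350-78620409 for IFI44L, chr12:112938306-112938365 for OAS3, chr10:89392482-89392541 for IFIT1 and chr15:44711348-44711407 for B2M, all on the plus strand.
IFI27: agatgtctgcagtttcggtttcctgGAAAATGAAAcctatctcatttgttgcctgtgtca
IFI44L: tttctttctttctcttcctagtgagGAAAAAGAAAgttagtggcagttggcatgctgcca
OAS3: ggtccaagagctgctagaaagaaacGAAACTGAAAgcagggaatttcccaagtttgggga
IFIT1: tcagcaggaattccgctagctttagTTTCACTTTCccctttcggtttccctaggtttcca
B2M: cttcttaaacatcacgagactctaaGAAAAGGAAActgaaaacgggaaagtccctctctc
The same 60 bases of the IFI44L promoter occur again upstream, at chr1:78620259-78620318. ATF5, which fell, also holds the first motif, in the stretch chr19:49928790-49928849.

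Among the other interferon regulatory factors 5 of 7 tested rose and none fell (median 0.26). IRF7, the factor that amplifies type I interferon genes, stood at 13.5, 24.2 and 28.0 CPM in controls and at 57.7, 49.0 and 55.2 CPM with IRF4 shRNA. Its control replicate 1 was low, and the log2 fold change of 1.30 (SE 0.22, adjusted p = 0.0018) was 1.04 without that library and 1.98 with only that control. IRF9, the DNA-binding partner of the STAT factors, rose from 48.8, 44.5 and 49.9 to 84.3, 87.2 and 85.6 CPM. IRF1 rose from 10.4, 9.27 and 10.9 to 17.8, 18.6 and 19.4 CPM. IRF8, a factor of germinal centre B cells, did not pass (-0.05, SE 0.07, adjusted p = 0.587).

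Immediate early genes were mostly higher, and chemokine genes went both ways. Of the immediate early factors and MAP kinase feedback genes 17 of 25 rose and 2 fell (median 1.76, or 1.08 over the 23 with a mean of at least 1 CPM; 5 fell without control replicate 1, and 1 without any other single library except IRF4 shRNA replicate 2). EGR2, a zinc finger factor of activated lymphocytes, went from 3.11, 3.39 and 2.97 to 97.0, 81.2 and 82.7 CPM (4.78, SE 0.10, adjusted p = 2.19e-08). EGR1 and EGR3 rose by 4.13 and 4.56, and the nuclear receptor gene NR4A3 by 3.14. Of chemokines and immune surface ligands 11 of 22 rose and 4 fell. CCL22, a chemokine for regulatory T cells, rose from 12.5, 11.8 and 13.5 to 113.4, 101.0 and 111.6 CPM. CCL3 and CCL4, which draw in T cells and have near-identical copies that make their counts uncertain, rose by 5.24 and 4.50. CD274, the ligand of the PD-1 receptor, rose by 2.0 (SE 0.07).

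In the NF-kB system 10 of 22 genes rose and 3 fell (45.5% and 13.6%, median 0.11), with 8 falls without control replicate 1 and 2 without any other library. REL, a subunit of B cells, rose by 1.02 and NFKB1 by 0.32. TNFAIP2, a target gene of the pathway, fell from 118.5, 129.4 and 137.7 to 22.1, 21.2 and 21.7 CPM, and TNFAIP3, its inhibitor A20, fell by 0.81. The genes of cytokine receptors and JAK-STAT signalling rose in 13 and fell in 4 of 24 (median 0.24); without control replicate 1, 7 fell. STAT5A rose from 1.32, 1.36 and 1.36 to 15.8, 16.4 and 16.9 CPM, and IL10, an autocrine cytokine of ABC lymphoma, by 2.37. Of B cell receptor and Toll-like receptor genes 16 of 28 rose and 4 fell (median 0.27). MYD88, the adaptor of Toll-like receptors, rose from 80.6, 82.5 and 85.8 to 132.6, 130.0 and 128.5 CPM (0.65, SE 0.05).

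Genes of the germinal centre, the stage IRF4 ends, went both ways: 13 rose and 8 fell of 23 tested (median 0.55). These were 56.5% and 34.8%, against 20.2% and 17.9% of all genes tested. Rises of at least 2-fold numbered 8 and such falls 2, and the lowest member stood at -1.13. The list's summed level overlapped between groups, at 2380 to 2760 CPM in controls and 2540 to 2640 CPM with IRF4 shRNA. Among the risers, LMO2, a marker of the germinal centre, went from 27.8, 28.6 and 30.2 to 93.0, 92.9 and 90.6 CPM (1.67, SE 0.06, adjusted p = 1.40e-07). STAP1, an adaptor of the B cell receptor, rose by 4.76, and BCL6, the repressor that defines the stage, by 0.46 (SE 0.09, adjusted p = 0.00349). Of plasma cell genes 15 of 24 fell and 1 rose (median -0.47; 2 rose without control replicate 1), where 17.9% of all genes fell. The exception was AQP3, a water channel, which rose by 2.27 and is named after its value was seen. TNFRSF17 encodes BCMA, the survival receptor of plasma cells. It stood at 19.8, 15.1 and 15.8 CPM in controls and at 4.14, 3.74 and 3.46 CPM with IRF4 shRNA (-2.16, SE 0.13, adjusted p = 4.69e-06). XBP1, the secretory regulator, fell from 74.8, 68.3 and 79.7 to 46.1, 43.5 and 48.3 CPM. PRDM1, which encodes Blimp-1, did not pass: it stood at 238.9, 228.1 and 235.8 CPM in controls and at 235.7, 230.5 and 232.5 CPM with IRF4 shRNA (-0.01, SE 0.04, adjusted p = 0.893).

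In the list of genes used to classify the ABC type, 11 of 27 rose and 9 fell (median 0.04; -0.03 with control replicate 1 as the only control). The members were not split by the type that each marks, so these counts give no direction for markers of the ABC type. ITPKB, a kinase of B cell signalling that marks the germinal centre type, rose by 2.49, whereas PIM2 and CREB3L2 fell by 0.71 and 0.84. Transcription factors and surface genes of B cells rose in 11 and fell in 10 of 29, with a median of -0.03 that turns to 0.04 under library size alone. CD22 rose by 1.06 and CD79A by 0.74. BLK, a cytoplasmic kinase of B cell receptor signalling, fell by 0.95. Among the known partners of IRF4, SPI1 rose by 1.08 (0.92 without control replicate 1, which was its lowest control) and IKZF1 fell by 0.24. IKZF3 had a log2 fold change of -0.06 (adjusted p = 0.455) and BATF one of -0.01 (adjusted p = 0.944). BATF passed with -0.17 without control replicate 1 and with 0.33 with that control alone, so its sign turned with the controls used.

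Genes of the unfolded protein response fell in 14 and rose in 2 of 25 (median -0.30). ERN1, which encodes the stress sensor IRE1, went from 115.0, 105.2 and 112.9 to 34.4, 31.4 and 37.6 CPM (-1.69, SE 0.07, adjusted p = 6.93e-07). SEL1L and EDEM1, which pass misfolded proteins to decay, fell by 1.02 and 0.87. The chaperone gene HSP90B1 fell from 559.3, 533.3 and 541.3 to 332.3, 317.2 and 325.6 CPM. The endoplasmic reticulum stress element, CCAAT followed by any 9 bases and CCACG, searched on both strands and holding a CCAAT box, was in 14 of 10347 promoters (0.135%) and in 5 of the 23 promoters of this list that were matched (21.7%). CCAAT alone was in 35.3% of all promoters and in 82.6% of the list's. It is printed for HSP90B1 (chr12:103930191-103930259, plus strand) and XBP1 (chr22:28800578-28800646, minus strand), with the match in capitals.
HSP90B1: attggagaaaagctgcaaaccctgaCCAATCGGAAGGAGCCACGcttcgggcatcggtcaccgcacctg
XBP1: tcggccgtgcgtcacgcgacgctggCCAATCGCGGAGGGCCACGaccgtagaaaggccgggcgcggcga

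Transport out of the endoplasmic reticulum and N-glycosylation moved little: 10 of 36 genes fell and 3 rose (median -0.09). These counts depend on the libraries, with 6 falls without IRF4 shRNA replicate 2 or 3 and 16 without control replicate 1; there were 6 rises without control replicate 1, 1 without IRF4 shRNA replicate 1 or 2 and none without control replicate 2. SPCS1, of the signal peptidase, fell by 0.69 and SPCS2 by 0.47. MAN1A1 encodes a mannosidase of the Golgi that trims N-glycans (chromosome 6, 119177205 to 119349761, minus strand). It stood at 79.8, 77.9 and 74.3 CPM in controls and at 90.1, 88.8 and 85.5 CPM with IRF4 shRNA. The groups did not overlap, by a small margin, and the log2 fold change was 0.19 (SE 0.05, adjusted p = 0.0195). The call was lost without IRF4 shRNA replicate 1 or 2 and without control replicate 2 or 3 (adjusted p = 0.0875, 0.0796, 0.0752 and 0.064).

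Targets of ATF4 and genes of serine and folate metabolism fell in 16 and rose in 2 of 26 (median -0.33), with 1 rise when IRF4 shRNA replicate 2 was left out and none when any other library except control replicate 1 was. ALDH1L2, a mitochondrial folate enzyme, fell from 176.1, 150.1 and 164.1 to 42.7, 45.2 and 46.1 CPM (-1.87, SE 0.07). ATF5, a stress factor, fell by 1.55, and ATF4 itself, named after its value was seen, by 0.32. Of the aminoacyl-tRNA synthetases, which charge tRNAs, 7 of 20 fell and 1 rose (4 rose without control replicate 1). QARS1 fell by 0.45 and WARS1 by 0.38.

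Cytosolic ribosomal protein genes fell in 74 of 76 and rose in none, with a median of -0.56. The exceptions, named after their values were seen, were RPL39 (-0.12, adjusted p = 0.072) and RPS26 (0.22, adjusted p = 0.084). RPL5, a protein of the large subunit (chromosome 1, 92832013 to 92841924, plus strand), stood at 1658, 1643 and 1670 CPM in controls and at 897.6, 893.2 and 915.1 CPM with IRF4 shRNA. The libraries of a group lay within a few percent of each other, and the log2 fold change was -0.88 (SE 0.04, adjusted p = 6.00e-07). Ribosomal protein genes have many near-identical pseudogene copies, which makes their counts uncertain; with pseudogenes left out of the fit 74 of 76 fell as well. Of translation factors and snoRNA host genes 21 of 28 fell and 1 rose (median -0.52; 3 rose without control replicate 1 and 2 without control replicate 3), EIF3L by 0.83 and EEF1B2 by 0.86. MYC and the genes of ribosome assembly rose in 6 and fell in 6 of 28 (21.4% each, near the 20.2% and 17.9% of all genes tested). Their median was 0.00. Without control replicate 1, 10 fell, and without any other single library 2 or 3 rose. NPM1 fell by 0.35 and NCL rose by 0.27. MYC stood at 113.9, 159.9 and 169.6 CPM in controls and at 137.5, 121.5 and 119.8 CPM with IRF4 shRNA, so that the low control replicate 1 overlapped the other group. It did not pass (-0.23, SE 0.13, adjusted p = 0.21), but did without that library (-0.39, adjusted p = 1.04e-04).

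**Figure D3:**
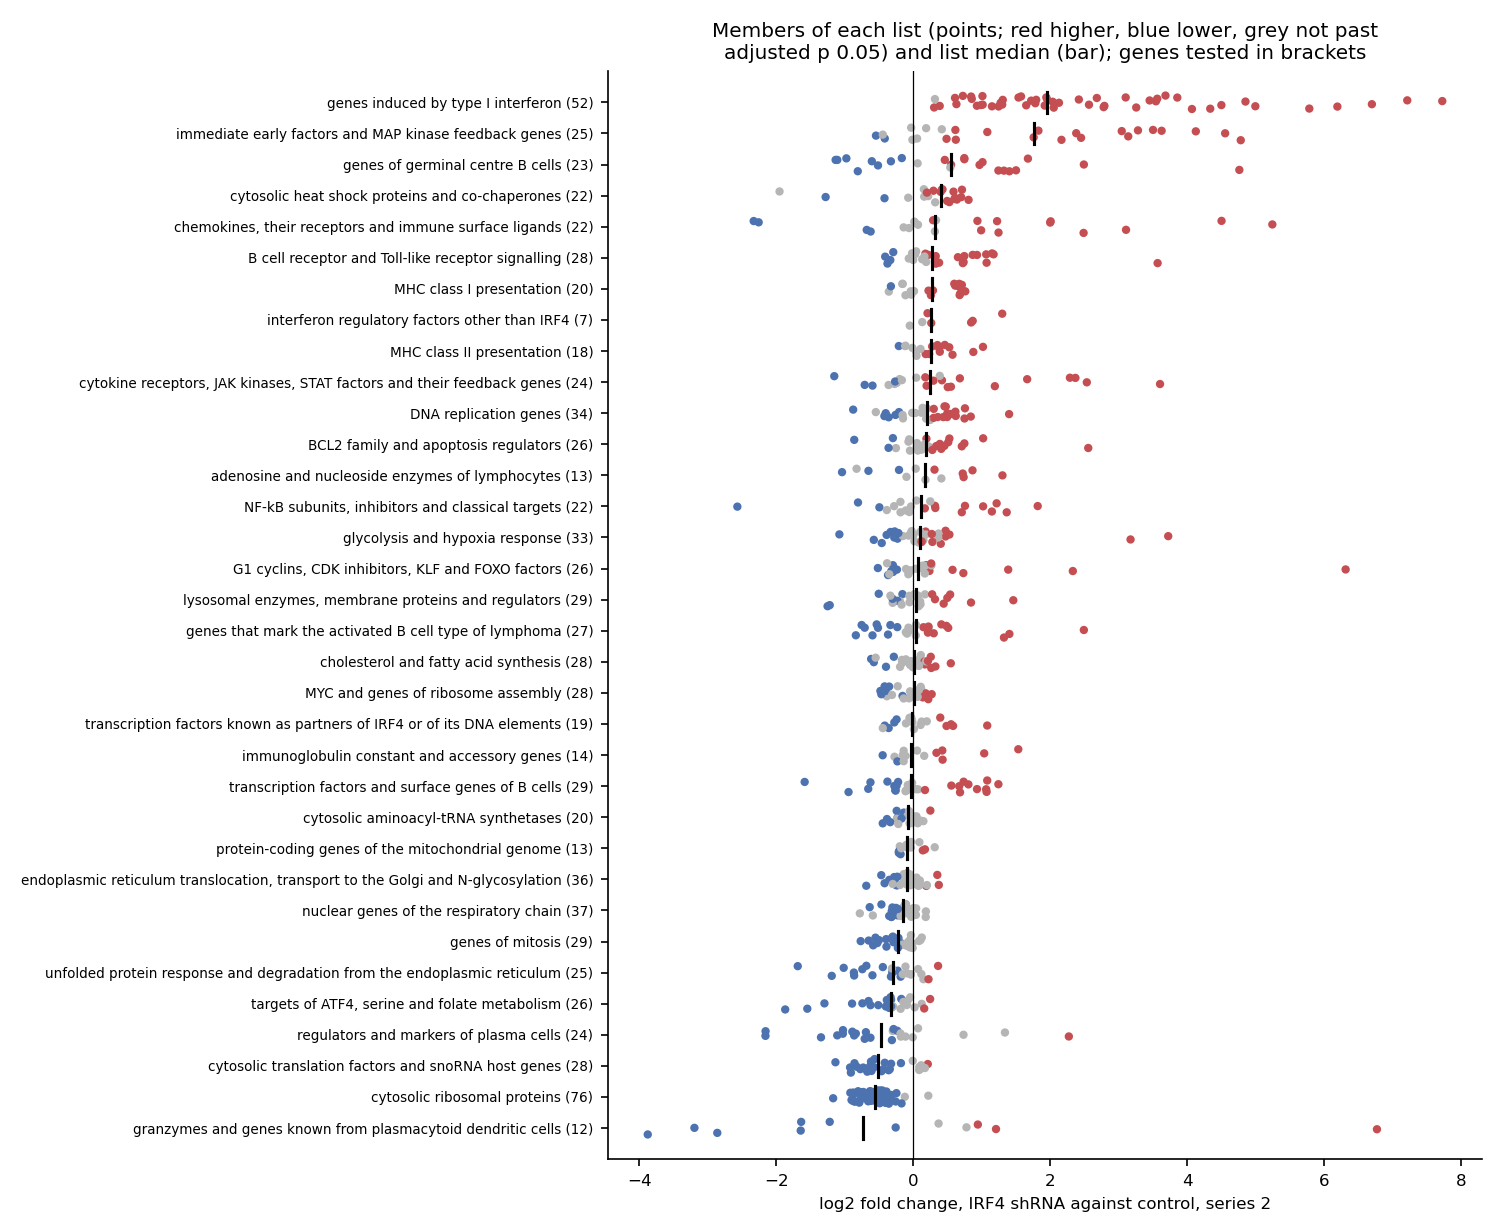
Log2 fold change in series 2 of the members tested in 34 gene lists (points; red higher and blue lower past adjusted p 0.05, grey not) with the median of each list (black bar). Interferon-induced genes, with a median of 1.95, lie to the right as a group, and the points of the ribosomal protein list, with a median of -0.56, lie almost all to the left.

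Cell cycle lists went different ways. DNA replication genes rose in 15 and fell in 6 of 34 (median 0.19). The counts were 20 and 9 without control replicate 1, and 14 rises with 4 to 6 falls without any other single library. Among the risers were TYMS, which makes thymidylate (0.84), and PCNA, the replication clamp (0.50). Genes of mitosis fell in 17 and rose in none of 29 (median -0.23). Without IRF4 shRNA replicate 1 or 2, 10 fell, and without control replicate 2, 11 fell; under library size alone 10 fell and 1 rose. UBE2C, which marks cyclins for decay, stood at 27.0, 31.2 and 28.8 CPM in controls and at 18.4, 18.5 and 18.4 CPM with IRF4 shRNA (-0.65, SE 0.07, adjusted p = 1.85e-04). PLK1, the mitotic kinase, fell by 0.77. Of apoptosis regulators 12 of 26 rose and 3 fell, with 5 falls without control replicate 1 and 1 or 2 without any other library. BIK and HRK, which promote cell death, rose by 2.56 and 1.02, and BIRC3, an inhibitor of it, by 0.71. Among G1 and quiescence genes 8 of 26 rose and 6 fell (30.8% and 23.1%, against 20.2% and 17.9% of all genes tested). Without control replicate 1 there were 11 and 10, and without any other single library 5 rises and 2 to 5 falls. TXNIP, an inhibitor of thioredoxin and glucose uptake, went from 1.85, 2.22 and 2.05 to 156.4, 159.7 and 172.1 CPM (6.32, SE 0.08). It had the smallest adjusted p of all genes, 2.96e-09.

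Genes of MHC class I presentation rose in 12 and fell in 1 of 20 (median 0.27; 4 fell without control replicate 1). B2M, the light chain, rose from 1003, 931.8 and 931.6 to 1486, 1441 and 1553 CPM. Class II genes rose in 11 and fell in 1 of 18 (median 0.25; 2 fell without control replicate 1 and none without IRF4 shRNA replicate 1), among them HLA-DRB1 by 0.57; reads of HLA genes can be split between alleles and copies, so these values are uncertain. Genes of heat shock proteins, their co-chaperones and heat shock factors rose in 14 and fell in 2 of 22 (median 0.41). No member fell without control replicate 2 or any IRF4 shRNA library, and 1 fell without control replicate 3. HSP90AA1 rose from 809.0, 739.4 and 667.4 to 1343, 1275 and 1258 CPM. Nuclear genes of the respiratory chain fell in 13 and rose in none of 37 (median -0.16), with 5 falls without IRF4 shRNA replicate 2 or 3, 8 without replicate 1 and 23 without control replicate 1. Genes of glycolysis rose in 11 and fell in 9 of 33 (33.3% and 27.3%, against 20.2% and 17.9% of all genes tested). There were 7 rises without IRF4 shRNA replicate 1 or 2. SLC2A3, a glucose transporter, rose from 3.48, 4.74 and 3.67 to 35.4, 35.9 and 36.0 CPM.

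Granzymes and genes known from plasmacytoid dendritic cells fell in 7 and rose in 3 of 12. The median was -0.74, but -1.22 over the 9 with a mean of at least 1 CPM, -0.41 with control replicate 1 as the only control and 0.05 with no filter on low counts, where its sign turned. GZMB, a protease of killer cells that plasmacytoid dendritic cells also make, stood at 202.5, 201.1 and 224.7 CPM in controls and at 27.4, 29.1 and 29.9 CPM with IRF4 shRNA (-2.86, SE 0.07, adjusted p = 2.19e-08). PTGDR, a prostaglandin receptor, fell from 17.4, 19.6 and 17.5 to 1.33, 1.25 and 1.12 CPM, the largest fall among the named genes. CTSC, which activates granzymes, fell by 1.22. SRGN, the proteoglycan of their granules, rose by 0.94. PRF1, the perforin gene, named after its values were seen, also rose; it stood at 0.0314, 0 and 0 CPM in controls and at 1.42, 1.45 and 1.61 CPM with IRF4 shRNA. The third riser was LILRA4, known from plasmacytoid dendritic cells, which rose by 1.21 (SE 0.13). PLD4, of the same cells, did not pass (0.37, adjusted p = 0.117). Both are named after their values were seen. Adenosine and nucleoside enzymes rose in 5 and fell in 3 of 13. ADA2, a secreted adenosine deaminase (chromosome 22, 17178790 to 17258235, minus strand), stood at 11.1, 10.2 and 11.1 CPM in controls and at 19.6, 19.8 and 19.6 CPM with IRF4 shRNA. All IRF4 shRNA libraries lay above all controls, with a log2 fold change of 0.86 (SE 0.08, adjusted p = 4.11e-05), which ran from 0.80 to 0.93 over the alternatives. AHCY, which clears S-adenosylhomocysteine, fell by 1.04, and SAMHD1, which breaks down deoxynucleotides, rose by 1.30.

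The labelled cell type was checked against B cell markers, all 8 of which were tested; 5 rose and 1 fell (2 without control replicate 1), and their summed level was 5310 to 5620 CPM in controls and 7270 to 7500 CPM with IRF4 shRNA. Of 12 T cell markers 4 could be tested, with sums of 5.31 to 6.77 CPM over the 6 libraries, and CD3E and CD28 had no count. CD247 and TRAC rose, from at most 0.0941 CPM in any control to 0.305 to 0.789 CPM with IRF4 shRNA. Of 11 myeloid markers 2 could be tested, the sum lay between 4.58 and 5.82 CPM, mostly MRC1, and MPO had no count. ITGAM rose from 0.157, 0.37 and 0.375 to 1.16, 1.40 and 1.34 CPM. Red cell markers lay at or near 0. The stromal and epithelial list summed to 67.5 to 77.7 CPM in controls and 47.0 to 50 CPM with IRF4 shRNA. Most of that was CDH1, an adhesion protein, which fell from 66.2, 68.0 and 60.3 to 31.5, 32.8 and 34.1 CPM, while EPCAM and KRT18 lay at or near 0. Of the 5 members tested 3 rose: PECAM1, an endothelial adhesion gene that lymphocytes also express, by 1.35, COL1A2, a collagen gene, by 2.41 and PDGFRB, a growth factor receptor gene, by 3.47. The last 2 stood at no more than 0.188 CPM in any control. The part of these markers in the other results was not tested.

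The largest rises and falls outside these lists were also measured. STUM, with 7 counts in all controls together, stood at 12.2, 14.7 and 14.1 CPM with IRF4 shRNA. OTOF, a calcium sensor of vesicle fusion, went from 0.94, 1.63 and 1.07 to 111.2, 112.7 and 120.5 CPM (6.56). CD52, a surface antigen of lymphocytes, rose by 6.45 and SCIMP, an adaptor of Toll-like receptors, by 6.09. On the other side, KCNA3, a potassium channel of lymphocytes, fell by 3.11, the scaffold gene FRMPD1 by 3.21 and ALPL, an alkaline phosphatase, by 2.79. DLX6-AS1 fell by 3.01, although reads of an antisense gene cannot be told from those of its partner where the strand setting of the counting is not given. LRFN1, a synaptic adhesion gene, stood at 5.33, 17.8 and 18.9 CPM in controls and at 2.24, 2.57 and 2.51 CPM with IRF4 shRNA. Its fall of 2.52 was -2.91 without control replicate 1 and -1.15 with that control alone.

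Series 1 allowed its calls to be measured again in libraries that took no part in them. Of 8263 genes called in series 1 and tested in series 2, 80.3% had the same sign in series 2 and 52.9% also passed there; 2.12% passed with the opposite sign. The median ratio of the log2 fold change in series 2 to that in series 1 was 0.66. Of 1652 genes that changed at least 2-fold in series 1, 91.8% had the same sign and 74.6% passed with it, with a median ratio of 0.76. Choosing genes by their values in series 1 can by itself lower both ratios, and its part in them was not tested. In series 2, 1727 called genes were not called in series 1, a count that is no test of a difference.

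The difference itself was tested as the effect in series 2 minus that in series 1 over all 12 libraries. It passed in 2248 of 17261 genes (13%), 869 with a higher effect in series 2 (5.03%) and 1379 with a lower one (7.99%). Of the 2226 with both estimates, 663 had the same sign with a smaller size in series 2, 281 the same sign with a larger size, and 1282 opposite signs. The number depended on the controls of series 2: it was 5244 without control replicate 1, 908 without replicate 2 and 1161 without replicate 3. Without IRF4 shRNA replicates 1, 2 and 3 it was 1357, 723 and 770. With control replicate 1 as the only control of series 2, 99.9% of the 2248 kept their sign. The 2248 were chosen in a fit that held the same libraries, so this share was largely set in advance and is no support. Genes with a higher effect in series 2 had a median transcript GC content of 44.4% and those with a lower one of 61.9%, against 49.4% over all genes tested in series 2. With the GC trend removed, 1400 genes passed, and the balance turned, with 777 higher and 623 lower (55.5% of calls higher, against 38.7%). Of the 2248 calls 41.8% passed with the same sign.

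**Figure D4:**
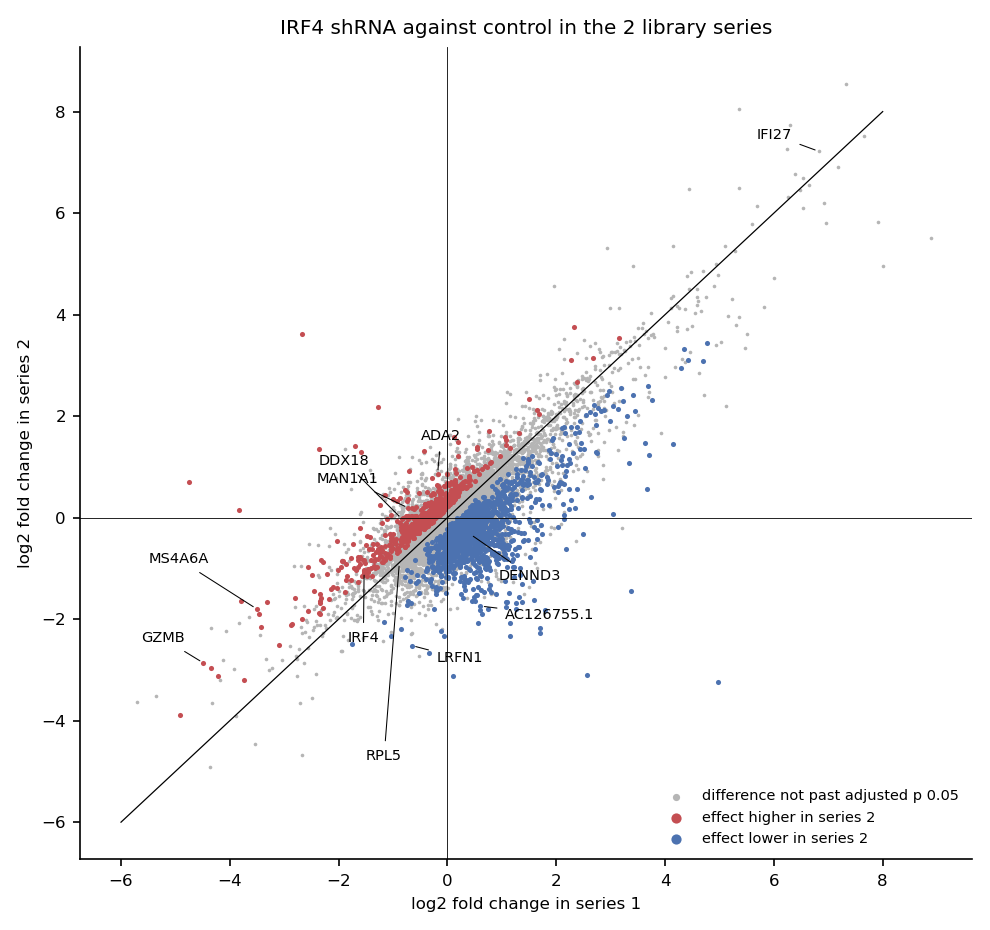
Log2 fold change of IRF4 shRNA against control in series 2 (y axis) and series 1 (x axis), 1 point per gene, with the line of equal effects; red and blue points passed the test of the difference between the series. GZMB, IRF4 and MS4A6A fell in both series and lie above the line, ADA2 and MAN1A1 lie above 0 in series 2 alone, and RPL5 lies on the line at -0.88.

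Of the 10 genes of smallest interaction p, 5 fell in both series, and less in series 2. GZMB differed by 1.60 (SE 0.09, adjusted p = 1.54e-06): it fell by 2.86 in series 2 and by 4.48 in series 1. MS4A6A, a membrane protein gene of the CD20 family, fell from 28.3, 28.0 and 27.5 to 8.56, 7.94 and 7.58 CPM in series 2 (-1.80), against -3.50 in series 1. SIGLEC6, CTSC and LHFPL2 also fell in both series, with differences of 0.63, 0.62 and 0.94. DDX18, an RNA helicase of ribosome assembly, stood at 162.1, 157.6 and 145.8 CPM in controls of series 2 and at 149.3, 150.5 and 157.3 CPM with IRF4 shRNA. These groups overlapped, and the log2 fold change of -0.03 (SE 0.05, adjusted p = 0.728) differed from that of -0.84 in series 1 by 0.79 (adjusted p = 9.84e-05). ADA2 differed by 1.03 (SE 0.10, adjusted p = 1.70e-04), with -0.18 in series 1 (adjusted p = 0.0823). MAN1A1 differed by 0.88 (SE 0.08, adjusted p = 8.22e-05), with -0.72 in series 1, the opposite sign. For RPL5 the difference was -0.01 (SE 0.05, adjusted p = 0.865). Those of these genes that passed did so under each of the 13 alternatives, with ADA2 from 0.97 to 1.05 and MAN1A1 from 0.76 to 0.91.

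**Figure D5:**
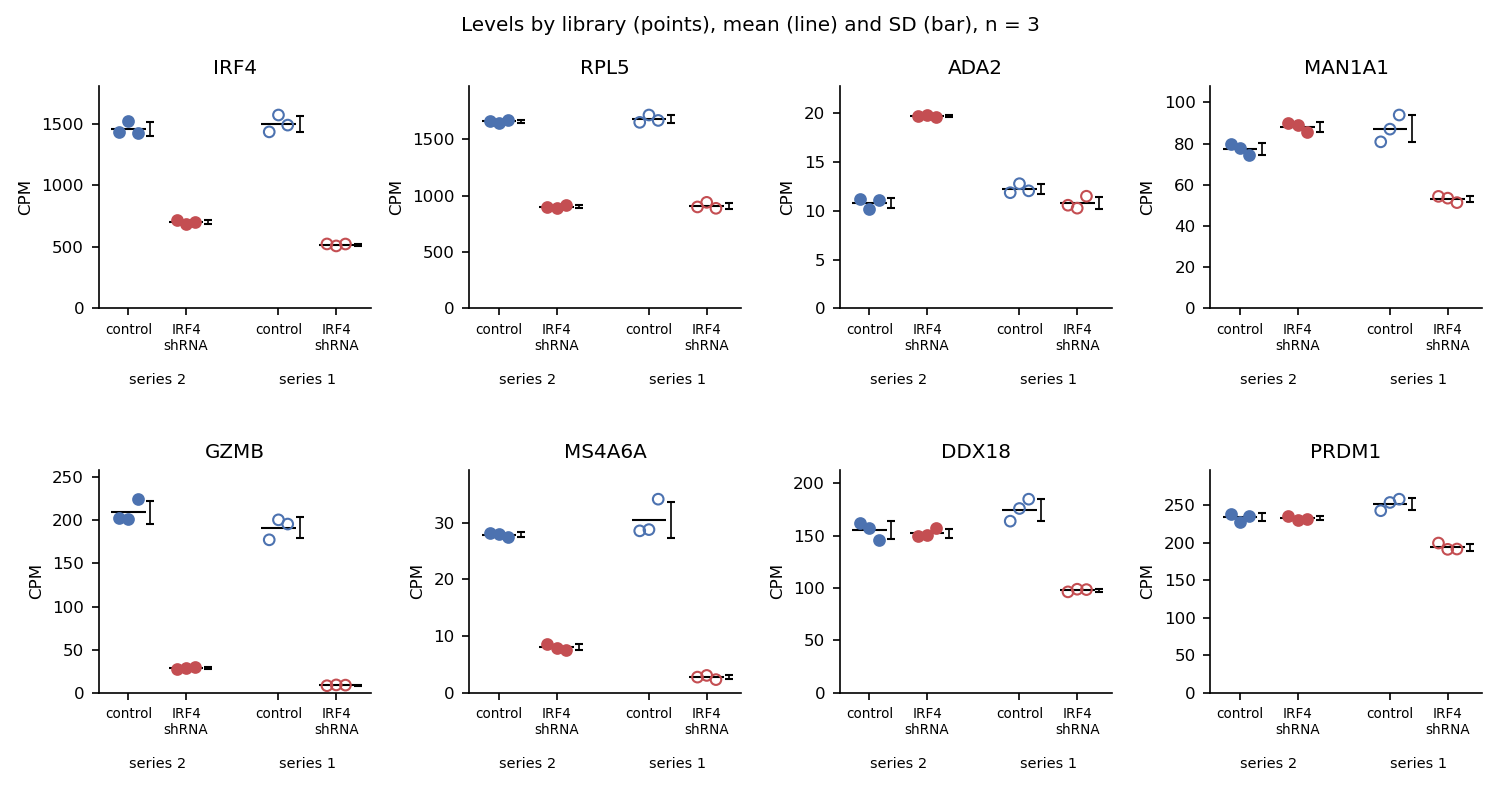
Level of 8 genes in CPM (y axes from 0) by library, with filled points for series 2 and open points for series 1; lines are means and bars SD (n = 3). TMM scaling was done within each series, so levels are to be compared within a series. ADA2 lies at 19.6 to 19.8 CPM with IRF4 shRNA in series 2, above its controls, and DDX18 and PRDM1 overlap between the groups of series 2.

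Other genes changed with opposite sign in the 2 series. RAB14, a GTPase of endosome traffic, rose in series 2 from 100.8, 99.0 and 96.4 to 116.7, 119.3 and 119.7 CPM (0.26, SE 0.05, adjusted p = 0.00208), against -0.41 in series 1. DENND3, an activator of Rab GTPases, fell from 56.5, 63.3 and 61.1 to 49.6, 48.8 and 46.5 CPM (-0.32), against 0.41. AFF3, MYOM1 and IL16 rose by 0.41, 0.33 and 0.30 in series 2 and had -0.15, -0.17 and -0.23 in series 1. The transcript AC126755.1 fell from 33.8, 95.8 and 104.1 to 25.3, 20.7 and 24.0 CPM (-1.74), with control replicate 1 far below the other controls; with that control alone the value was -0.56, and without it -2.11.

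The difference between series was also counted by list. Among granzymes and genes of plasmacytoid dendritic cells 6 of 12 had a higher effect in series 2 and 1 a lower (background 5.03% and 7.99%), or 6 and 2 without control replicate 1 and 3 and 1 with it as the only control. Plasma cell genes had a higher effect in 7 of 24 and a lower one in none, or 10 and 2 without control replicate 1 and 6 and 0 with that control alone. TNFRSF17 was among the 7, at -3.42 in series 1 and -2.16 in series 2 (difference 1.24, adjusted p = 0.00243). For the unfolded protein response the counts were 7 and 0 of 25, 9 and 2 without control replicate 1 and 5 and 0 with that control alone, and ERN1 differed by 0.63. The list used to classify the ABC type had 11 of 27 higher and 1 lower, but 14 and 3 without control replicate 1. Its median difference was 0.19, and 0.11 with that control alone. The median effect of this list was 0.04 in series 2 and -0.17 in series 1. Endoplasmic reticulum transport had 11 of 36 higher and none lower, but 21 and 5 without control replicate 1, 5 and 0 with the GC trend removed and 1 and 0 with that control alone. In the interferon list 4 of 52 were higher and 2 lower, but 14 and 3 without control replicate 1, and none passed with that control alone. Of ribosomal protein genes none of 76 was higher and 8 lower, a share near the background; without control replicate 1 there were 1 and 29, and none passed with that control alone. Other lists had more lower effects than higher ones. Among them, MHC class I had 1 of 20 higher and 7 lower and the NF-kB system 5 and 7 of 22. B cell receptor and Toll-like receptor genes had 2 and 5 of 28. With the GC trend removed the counts of these 3 lists were 1 and 2, 6 and 0, and 3 and 0. Without control replicate 1 they were 2 and 10, 6 and 9, and 5 and 8. UBE2C and PLK1 had lower effects in series 2, by 0.65 and 0.59 (edgeR interaction adjusted p = 0.00156 and 0.0077), with -0.02 and -0.20 in series 1.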

How the data were processed

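RNA of TMD8 cells was sequenced as 100 base paired reads from TruSeq stranded libraries, per the labels' protocols. The authors' deposited table holds estimated counts per gene in 12 libraries; STAR, HTSeq and the hg38 build are named, without versions, per the submitters' processing notes. Of the values, 66.6% were whole within 1e-06, and no label or header names the step that gave fractions. Counts were rounded to whole numbers. Genes passing filterByExpr (minimum count 10) were tested with edgeR 4.0.16 in R 4.3.3 (TMM, quasi-likelihood test, Benjamini-Hochberg adjusted p under 0.05), in the 6 libraries of series 2 and, for the difference between series, in all 12 as 4 groups. CPM is on TMM-scaled library sizes within a series. In series 2, 3 counts correspond to 0.0786 to 0.0933 CPM. GC content came from GENCODE 29 transcripts, for 96.3% of the genes tested. Alternatives used limma 3.58.1 and DESeq2 1.42.0. In simulated data 100 genes were changed by a log2 of 0.5 and 100 by 1. The series 2 test (16614 genes) recovered 43% and 75% of them, with 9.23% of calls false, more than the threshold of 0.05 aims at. The difference test (17261 genes) recovered 33% and 60%, with 7.92% false. Far fewer genes changed there than passed in the data, so these rates need not hold for the data.

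The members and gene lists were chosen with earlier results of these data known. Genes were named by rule: IRF4, ADA2, MAN1A1 and RPL5; the 10 largest rises and 10 largest falls with a mean of at least 5 CPM and groups that do not overlap; up to 4 genes of smallest p per list; up to 10 of smallest p for the difference between series; up to 6 called with opposite sign in both series; the 5 of smallest adjusted p; and 17 fixed regulators. Some of these genes are not reported here.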

Additional observations from a re-analysis of the deposited data

Results flagged for a closer look

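The effect of IRF4 shRNA differed between the series, by edgeR's test of the difference over all 12 libraries, for 10 genes of small p. In log2 units, the effect in series 2 minus that in series 1 was 1.03 for ADA2, 0.88 for MAN1A1, 1.60 for GZMB, 0.62 for CTSC, 1.68 for MS4A6A, 0.65 for RAB14, 0.79 for DDX18, 0.94 for LHFPL2, 0.63 for SIGLEC6 and -0.75 for DENND3. ADA2, MAN1A1 and RAB14 rose in series 2, whereas in series 1 MAN1A1 and RAB14 fell and ADA2 did not pass. GZMB, CTSC, MS4A6A, LHFPL2 and SIGLEC6 fell in both series. IRF4 itself was 48.3% of control in series 2 and 34.6% in series 1.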

How the results depend on the processing

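Of 169 named genes called in series 2, 163 kept call and direction under all 19 alternatives and none reversed. Most of them were chosen for a small p or a large change in the same libraries, so they do not stand for all calls. Of all 6332 calls, 69.0% to 97.9% were kept with single libraries left out. With a replicate block 82.2% were kept by library name and 82.0% by title. The count of 6332 changed genes lay between 4444 and 8611 with single libraries left out, and rises of at least 2-fold numbered 583 with a mean of at least 1 CPM required, where fewer genes are tested. Falls of at least 2-fold ranged from 484 to 905 with single libraries left out, the highest without control replicate 1. They numbered 402 with a mean of at least 1 CPM required, 417 with control replicate 1 as the only control and 456 with pseudogenes left out. The difference between series passed in 723 to 5244 genes with single libraries left out (287 to 2463 higher, 436 to 2781 lower), in 202 without control replicates 2 and 3 (109 and 93), in 1400 with the GC trend removed (777 higher, 623 lower) and in 1283 with a replicate block (435 and 848). The cause was not tested. Same-numbered libraries did not deviate together (correlations -0.072, -0.04 and -0.007). Libraries with unlike numbers gave similar values (-0.024 to 0.058), so these correlations cannot show whether the numbers pair the libraries. With the replicate block by library name 5258 genes passed in series 2, by title 5237, and with the GC trend also removed 6960. IRF4 kept its call throughout. Of genes changed at least 2-fold in series 1, 91.8% had the same sign in series 2 and 74.6% passed with it. Their median ratio, which the choice of genes by series 1 can lower, was 0.761. SPIB had -0.28 (adjusted p = 0.0116) and lost its call with the GC trend removed (0.199). With 3 libraries a group, small changes can be missed, as some were in the simulated data, where far fewer genes changed.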

Other observations

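Lysosomal genes rose in 7 and fell in 6 of 29 in series 2 (24.1% and 20.7%, near the 20.2% and 17.9% of all genes tested; 10 falls without control replicate 1 and 3 without IRF4 shRNA replicate 2). CTSH, a lysosomal protease, rose from 41.1, 43.0 and 45.6 to 124.4, 118.1 and 114.6 CPM (1.46, SE 0.06, edgeR adjusted p = 4.53e-07). GRN, the progranulin gene, stood at 443.3, 527.6 and 612.9 CPM in controls and at 234.0, 216.8 and 214.1 CPM with IRF4 shRNA (-1.25), with no overlap. Cholesterol and fatty acid synthesis rose in 7 and fell in 4 of 28 (25% and 14.3%, also near that background; 11 and 8 without control replicate 1; 4 rises without IRF4 shRNA replicate 1 or 3 or control replicate 2; 1 or 2 falls without any library but control replicate 1). HMGCS1, an early enzyme of the pathway, rose by 0.55, while MSMO1, a later one, fell by 0.58.

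Immunoglobulin genes, whose segments resemble each other and whose counts are therefore uncertain, rose in 5 and fell in 2 of 14 (6 fell without control replicate 1, and 1 without IRF4 shRNA replicate 2 or 3). IGHD, the delta heavy chain, rose from 1.22, 1.17 and 1.27 to 2.95, 2.70 and 1.88 CPM. Transcription factors known as partners of IRF4 or of its DNA elements rose in 5 and fell in 4 of 19 (26.3% and 21.1%). Of all genes tested 20.2% rose and 17.9% fell. The counts were 7 and 7 without control replicate 1, and 2 fell without IRF4 shRNA replicate 3. ELF1 was higher by 0.49 and MEF2C by 0.55. Of the 13 messenger RNAs of the mitochondrial genome 2 rose and 3 fell (15.4% and 23.1%, near that background; 6 fell without control replicate 1 and 5 without control replicate 2; no rise without control replicate 2 or IRF4 shRNA replicate 1 or 3, and 1 without IRF4 shRNA replicate 2). MT-ND1, a subunit of complex I, fell from 4493, 4470 and 4578 to 3992, 3866 and 3838 CPM (-0.21).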
